A study of Homo sapiens with 8 samples.

Results

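A4GALT encodes the enzyme that makes the globo-series lipid Gb3, and it was examined with 9 other genes that build or break down glycosphingolipids, the sugar-bearing lipids of the outer cell membrane. These 10 genes were taken by symbol from 59050 gene symbols counted by RNA sequencing. They were chosen by their place in the pathway and by log2 fold changes already seen between these same groups of tumours, so their values are given as a description with no p-value. A gene is said to be called, or to have risen or fallen, where it passed an adjusted p of 0.05 in a fit across all genes. The samples were xenografts, tumours grown in a host animal from the human lung cancer line H2122. The parental line (genotype WT) gave 4 tumours and a SMARCA4 knockout of it gave 4. SMARCA4, also called BRG1, is the motor subunit of chromatin remodelling complexes of the SWI/SNF type. All 8 tumours carried the vehicle label. The host strain and age, and whether the knockout cells came from 1 clone, are not given in the sources used here, so knockout and clone cannot be told apart. Nothing in the labels says that tumours of a group came from separate animals, so the spread and the p-values below measure only differences between these samples, which may be technical.

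Glycosphingolipid synthesis starts when UGCG adds glucose to ceramide. B4GALT5 or B4GALT6 then adds galactose, which gives lactosylceramide, the branch point of the pathway. A4GALT takes lactosylceramide into the globo branch as Gb3, also known as CD77 and as the receptor of Shiga toxin, and B3GALNT1 extends it to Gb4. ST3GAL5 takes the same lipid into the ganglio branch as GM3, ST8SIA1 makes GD3 from GM3, and B4GALNT1 makes GM2, GD2 and asialo-GM2. B3GNT5 opens the lacto series, another branch. GLA, the lysosomal enzyme missing in Fabry disease, removes the outer galactose of Gb3, and GBA2 splits glucosylceramide outside the lysosome.

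The promoter sequences of A4GALT and ST3GAL5 are shown because these 2 enzymes compete for lactosylceramide and their transcripts were called in opposite directions. Both are from RefSeq on GRCh38.p14, minus strand, 5′ to 3′, and end where an exon annotated in GENCODE 29 begins, before the start site RefSeq gives. The A4GALT stretch is chr22:42720911-42721120 and the ST3GAL5 stretch is chr2:85889056-85889240, and both lie inside the span GENCODE 29 gives the gene, so other annotated starts lie upstream. Capitals mark GC boxes (GGGCGG or its complement) and the CCAAT box (CCAAT or its complement).
A4GALT: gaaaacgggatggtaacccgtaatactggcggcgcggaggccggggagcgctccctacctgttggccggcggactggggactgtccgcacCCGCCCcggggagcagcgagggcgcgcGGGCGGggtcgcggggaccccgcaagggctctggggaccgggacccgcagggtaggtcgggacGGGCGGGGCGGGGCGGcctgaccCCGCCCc
ST3GAL5: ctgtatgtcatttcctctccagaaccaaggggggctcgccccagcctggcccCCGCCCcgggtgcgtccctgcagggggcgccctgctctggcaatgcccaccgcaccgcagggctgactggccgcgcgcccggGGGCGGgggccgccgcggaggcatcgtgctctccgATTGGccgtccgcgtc
In the full window of 250 bases before the RefSeq start, A4GALT held 7 GC boxes, of which 6 are in the printed stretch, and ST3GAL5 held 3, of which 2 are printed. At least 1 GC box on either strand was found in 42.6% of the 35116 RefSeq windows of that length, and at least 1 CCAAT box in 32.0%. The number of boxes per window was not compared with that in other windows. ST3GAL5 had 1 CCAAT box and A4GALT had none. No match on either strand to TGANTCA (the AP-1 motif, in 6.57% of windows), CACGTG (the E-box, 6.34%) or TATAAA (the TATA box, 10.7%) was found in either window, which says only that these letters are not there. G and C made up 79.2% of the A4GALT window and 76.0% of the ST3GAL5 window, against a median of 58.0% over all windows.

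Libraries held 19785922 to 23191698 gene counts, with both groups inside that range. SMARCA4, the targeted gene, averaged 221 ± 16.0 CPM (a count scaled to library size, with TMM factors) in parental against 27.3 ± 3.90 CPM in knockout tumours (mean ± SD, n = 4 each; exact two-sided permutation p = 0.0286, the smallest that 4 against 4 tumours allow). The 7 epithelial markers summed to 7505 to 8814 CPM in parental and 6599 to 7972 CPM in knockout tumours, with 0 called higher and 2 called lower: KRT19 (1060 ± 153 to 526 ± 51.0 CPM, edgeR adjusted p = 8.49e-05) and KRT7 (1675 ± 94.6 to 1024 ± 116 CPM, adjusted p = 0.000333). The 5 lung lineage markers summed to 0.893 to 1.30 CPM in parental and 1.03 to 1.51 CPM in knockout tumours. Of these, NKX2-1 and SFTPC were at 0 in every library (a count of 0 over a group allows up to 3). NAPSA, the 1 tested, was at 0.680 to 1.14 and 0.933 to 1.22 CPM and was not called. The 8 leukocyte markers summed to 7.53 to 69.3 CPM in parental and 12.8 to 30.0 CPM in knockout tumours. Of the 7 tested, 0 were called. LYZ alone gave 3.78 to 38.2 CPM in parental and 4.71 to 17.5 CPM in knockout tumours. The 7 fibroblast markers summed to 181 to 611 and 345 to 606 CPM. Most of each sum was the collagen gene COL1A1 (174 to 572 and 317 to 565 CPM), so the sums mainly give the level of this gene. The 1 marker called among 5 tested was LUM, which rose by 5.00 on the log2 scale (parental mean 0.374 CPM, knockout mean 12.4 CPM). The 6 endothelial markers summed to 7.35 to 18.0 and 8.68 to 15.3 CPM. Most of each sum was PECAM1 (5.14 to 12.9 and 7.99 to 14.6 CPM), which was not called. VWF, the other of 2 tested, was called lower (log2 fold change -2.37, 172 parental and 32 knockout counts). Of those not tested, CDH5 had 36 parental and 0 knockout counts and KDR had 38 and 9. TEK had 28 and 24 counts and CLDN5 had 2 and 4. The part of these markers in the results below was not tested. The 5 erythroid markers summed to at most 0.0934 CPM in any library. The 6 skeletal muscle markers summed to 0.311 to 23.4 and 0.341 to 14.6 CPM, and the 1 tested was not called. In bulk tumours, fewer cells of a type and less RNA per cell cannot be told apart.

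Of the 10 genes, 9 passed the filter on low counts and 6 of these were called: A4GALT, UGCG, B4GALNT1 and GLA rose and B4GALT5 and ST3GAL5 fell. Over all 16219 genes tested, 27.0% were called, 13.0% higher and 14.1% lower. The groups did not overlap in CPM for 5 of the 9, against 29.3% of all genes tested. Nothing is read from these counts, since the genes were chosen with this comparison known. The median log2 fold change over the 9 was 0.27, against 0.00 over all genes tested.

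A4GALT (ENSG00000128274, chromosome 22, 42692112 to 42721298, minus strand, GENCODE 29 on GRCh38) was at 6.78, 5.27, 6.34 and 7.10 CPM in parental replicates 1 to 4. In knockout replicates 1 to 4 it was at 34.8, 31.2, 31.5 and 27.1 CPM. All 4 knockout tumours were far above all 4 parental tumours, and the spread within each group was small, with a coefficient of variation of 12.5% in parental and 10.0% in knockout tumours. The log2 fold change was 2.29 (SE 0.125, 95% interval 2.01 to 2.56), a 4.88-fold rise, resting on 548 parental and 2640 knockout counts. It ranked 148 of the 16219 genes tested by upward log2 fold change. Leaving out any 1 tumour gave 2.21 to 2.35.

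Genes next to A4GALT on chromosome 22 were looked up by position, with adjusted p-values from edgeR. On the side of lower coordinates, CYB5R3 averaged 119 ± 6.93 CPM in parental against 114 ± 2.73 CPM in knockout tumours, with a log2 fold change of -0.07 (adjusted p = 0.521). POLDIP3 had a log2 fold change of -0.16 (adjusted p = 0.153). On the other side, ARFGAP3, which encodes a GTPase-activating protein of Golgi traffic, rose by 0.39 (SE 0.119, adjusted p = 0.0303, with 0.0132 to 0.0944 when 1 tumour was left out and the call lost without parental replicates 1 or 4 or knockout replicates 1, 2 or 3), and PACSIN2 was at -0.19 (adjusted p = 0.113). The difference in A4GALT was thus larger than that in each of these 4 neighbours.

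B3GALNT1 (chromosome 3, 161083883 to 161105384), which extends Gb3 to Gb4, was at 17.3, 14.9, 13.8 and 18.5 CPM in parental and 15.5, 16.2, 18.4 and 16.4 CPM in knockout replicates 1 to 4. All 4 knockout values lay inside the parental range. Its log2 fold change was 0.04 (SE 0.118, 95% interval -0.22 to 0.30), so the second globo step was not called while the first was. Some of its exons overlap those of NMD3 on the other strand over 101 bases, and reads there cannot be assigned with the strand unknown.

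**Figure D1:**
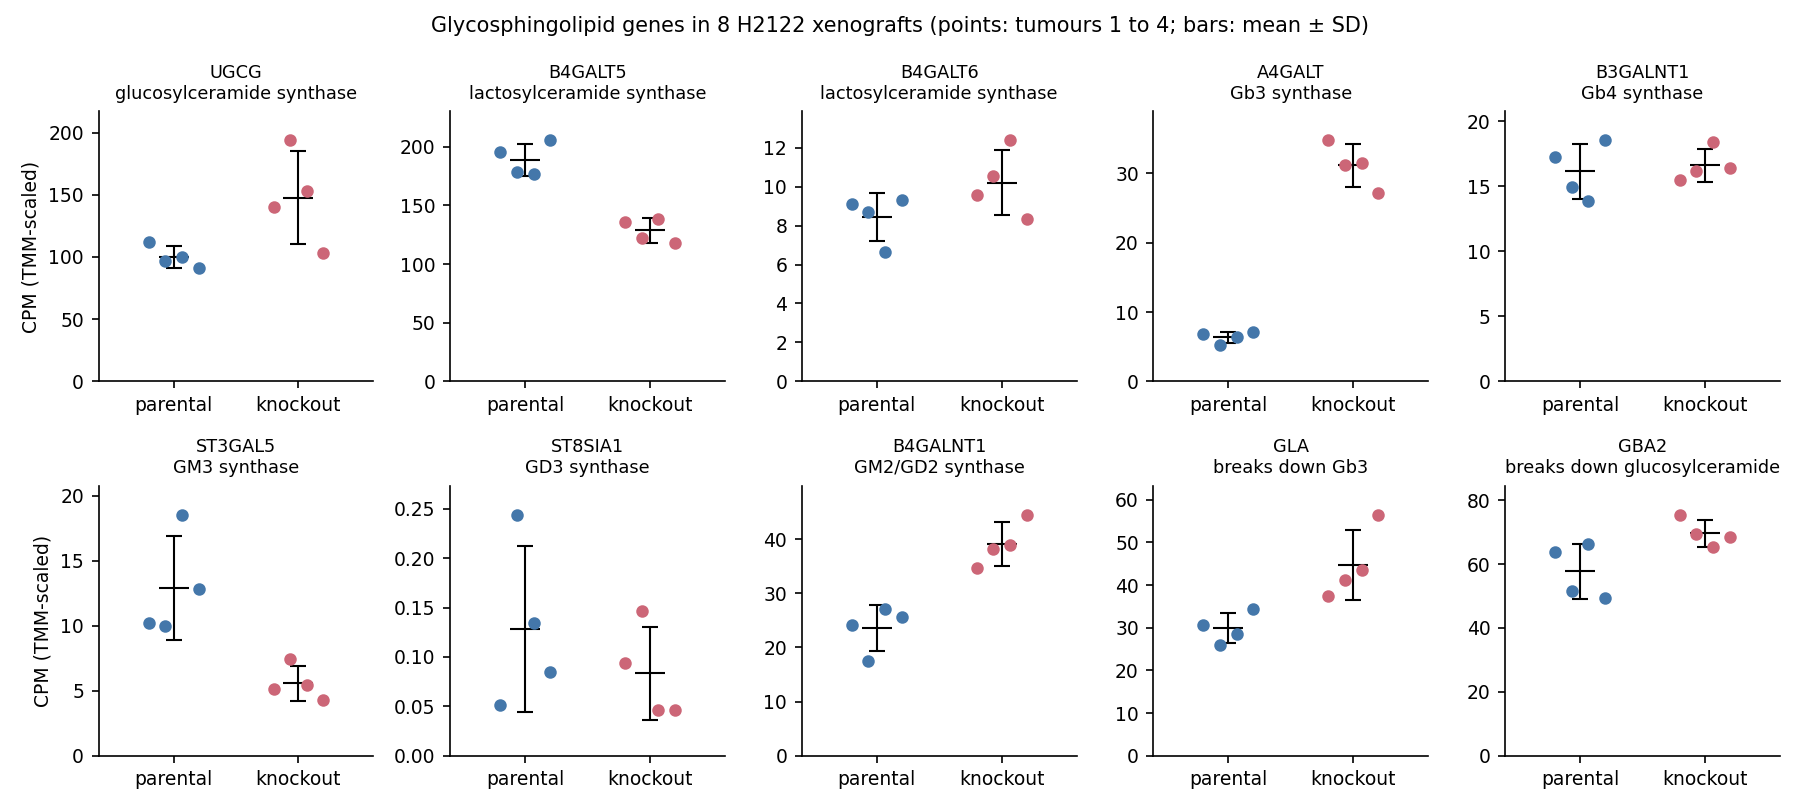
CPM of the 10 genes in each tumour, with parental tumours in blue and knockout tumours in red, and the mean ± SD in black; each panel has its own axis starting at 0. A4GALT sits at 5.27 to 7.10 CPM in parental and 27.1 to 34.8 CPM in knockout tumours, and ST8SIA1 stays at or under 0.244 CPM.

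UGCG (chromosome 9, 111896766 to 111935369), the enzyme that starts the pathway, was at 112, 96.6, 99.6 and 91.0 CPM in parental replicates 1 to 4. In knockout replicates 1 to 4 it was at 140, 194, 153 and 103 CPM. Knockout replicate 4 lay inside the parental range and the other knockout tumours above it. UGCG rose by 0.56 on the log2 scale (SE 0.160, 95% interval 0.21 to 0.91). The call was lost without parental replicate 4 (0.52), without knockout replicate 2 (0.41) or without knockout replicate 3 (0.55), so it rests on single tumours.

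B4GALT5 (chromosome 20, 49632945 to 49713878), a lactosylceramide synthase, was at 195, 179, 176 and 205 CPM in parental and 136, 122, 139 and 118 CPM in knockout replicates 1 to 4. Every knockout tumour was below every parental tumour. B4GALT5 fell by 0.55 on the log2 scale (SE 0.0890, 95% interval -0.75 to -0.36). Its paralog B4GALT6 (chromosome 18, 31622247 to 31685836) catalyses the same step and was at 9.11, 8.69, 6.65 and 9.31 CPM in parental and 9.58, 10.5, 12.4 and 8.36 CPM in knockout tumours. The groups overlapped, and the log2 fold change of 0.27 (SE 0.158, 95% interval -0.07 to 0.62) was not called. Per kilobase of transcript, the level of B4GALT5 was 18.6 ± 2.19 times that of B4GALT6 in parental tumours and 10.5 ± 1.31 times in knockout tumours (mean ± SD, n = 4 each), so B4GALT5 remained the more abundant of the pair in all 8 tumours.

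ST3GAL5 (chromosome 2, 85837120 to 85905199), the GM3 synthase that opens the ganglio branch, was at 10.2, 9.96, 18.5 and 12.8 CPM in parental replicates 1 to 4. In knockout replicates 1 to 4 it was at 5.09, 7.41, 5.41 and 4.29 CPM. The groups did not overlap, and parental replicate 3 was the highest of the 8 tumours. ST3GAL5 fell by 1.22 on the log2 scale (SE 0.228, 95% interval -1.72 to -0.72), which makes it 2.32-fold lower, on 1118 parental and 469 knockout counts. Without parental replicate 3 the log2 fold change was -0.99 and the gene was still called. Leukocyte markers summed to 13.2, 69.3, 58.7 and 7.53 CPM in parental replicates 1 to 4, of which replicate 2 had the lowest ST3GAL5. In knockout tumours these markers summed to 12.8 to 30.0 CPM. LYZ alone gave 8.13, 38.2, 36.8 and 3.78 CPM in parental replicates 1 to 4. Whether the marker reads came from host cells was not tested. The part of the leukocyte markers in the ST3GAL5 difference was not tested either.

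B4GALNT1 (chromosome 12, 57623410 to 57633355), the GM2 and GD2 synthase, moved the other way. It was at 24.1, 17.5, 27.1 and 25.6 CPM in parental and 34.6, 38.3, 39.0 and 44.5 CPM in knockout replicates 1 to 4. No knockout tumour was within the parental range. B4GALNT1 rose by 0.73 on the log2 scale (SE 0.137, 95% interval 0.43 to 1.03). Its merged exons share 2136 bases with those of SLC26A10 on the other strand, which had 7 parental and 5 knockout counts.

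ST8SIA1 (chromosome 12, 22063773 to 22437041), the GD3 synthase, had 11 counts over all parental and 7 over all knockout libraries and did not pass the filter. Its knockout-to-parental ratio of pooled counts was 0.634 (exact 95% interval 0.209 to 1.79, counting error only), so a difference was not detectable at this depth. At 0.0518 to 0.244 CPM in parental and 0.0467 to 0.146 CPM in knockout tumours, it had the lowest level of the 10 genes.

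GLA (chromosome X, 101397803 to 101408012), which removes the galactose that A4GALT adds, was at 30.6, 26.0, 28.6 and 34.3 CPM in parental and 37.4, 41.2, 43.6 and 56.5 CPM in knockout replicates 1 to 4. The groups did not overlap, and knockout replicate 4 was the highest. GLA rose by 0.58 on the log2 scale (SE 0.135, 95% interval 0.28 to 0.88), or 0.45 without knockout replicate 4, still called. GBA2 (chromosome 9, 35736866 to 35749228) was at 63.9, 51.5, 66.3 and 49.3 CPM in parental and 75.5, 69.5, 65.4 and 68.3 CPM in knockout tumours. Its groups overlapped at 1 knockout tumour, replicate 3, and its log2 fold change of 0.27 (SE 0.109, 95% interval 0.03 to 0.51) was not called after adjustment over all genes, except without parental replicate 3 (0.34). GBA2 shares 139 exon bases with CREB3 on the other strand.

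Levels of different genes were compared per kilobase of the longest principal transcript that GENCODE 29 marks for each gene. In parental tumours the order from high to low was B4GALT5 (40.0 ± 2.93 CPM per kilobase), UGCG (24.9 ± 2.23), GLA (22.7 ± 2.67), GBA2 (16.0 ± 2.38), B4GALNT1 (7.77 ± 1.40), B3GALNT1 (4.46 ± 0.592), ST3GAL5 (2.91 ± 0.900), A4GALT (2.75 ± 0.344), B4GALT6 (2.17 ± 0.314) and ST8SIA1 (0.0133 ± 0.00865; SD, n = 4 for each). Ranges over tumours overlapped between UGCG and GLA, and between each neighbouring pair from B3GALNT1 down to B4GALT6. In knockout tumours A4GALT had moved up to 13.4 ± 1.35 CPM per kilobase, below GBA2 (19.3 ± 1.17) and above B4GALNT1 (12.9 ± 1.35), and its range overlapped that of B4GALNT1. ST3GAL5 was the lowest there apart from ST8SIA1, at 1.25 ± 0.299, below B4GALT6 (2.62 ± 0.435). UGCG (36.8 ± 9.32), GLA (33.9 ± 6.29) and B4GALT5 (27.2 ± 2.21) led there, each overlapping the next in range. The order depends on the lengths used. With merged exons, knockout A4GALT was at 9.14 and B4GALNT1 at 4.89 CPM per kilobase. In parental tumours B4GALNT1 (2.95) was then below B3GALNT1 (3.86), and ST3GAL5 (0.790) was below both A4GALT (1.87) and B4GALT6 (1.59).

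**Figure D2:**
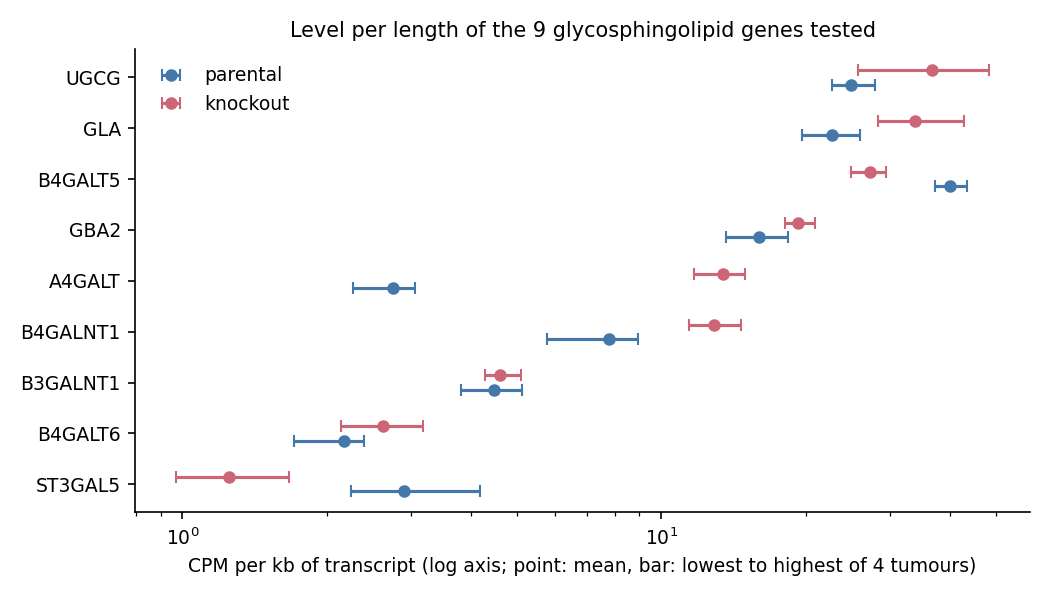
Level per kilobase of transcript of the 9 genes tested, on a log axis, as the mean (point) and the lowest to highest tumour (bar) of the 4 parental (blue) and 4 knockout (red) tumours. A4GALT moves from 2.75 to 13.4 CPM per kilobase and ST3GAL5 from 2.91 to 1.25.

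At the branch point, the ratio of A4GALT to ST3GAL5 per kilobase was 1.27, 1.01, 0.653 and 1.06 in parental replicates 1 to 4. In knockout replicates 1 to 4 it was 13.0, 8.04, 11.1 and 12.1. The globo entry transcript was thus near parity with the ganglio entry transcript in parental tumours and in excess of it in all 4 knockout tumours. The mean log2 ratio differed by 3.49 between the groups, an 11.2-fold shift, with 3.30 to 3.63 when 1 tumour was left out. This shift does not depend on the lengths used, while the ratios do: with all exons of each gene merged, which makes ST3GAL5 16.3 rather than 4.43 kilobases long, they were 2.50 ± 0.641 and 27.7 ± 5.42.

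Among the transcripts of 4 enzymes that can extend lactosylceramide, compared per kilobase, A4GALT made up 10.3% ± 0.593 in parental and 38.2% ± 2.79 in knockout tumours (mean ± SD, n = 4 each). B3GNT5, the lacto-series enzyme, went from 49.9% ± 4.80 to 21.3% ± 2.78 and ST3GAL5 from 10.9% ± 2.96 to 3.56% ± 0.740. B4GALNT1 was at 28.9% ± 2.27 and 36.9% ± 5.33, with parental shares up to 32.1% and knockout shares from 32.0%. B3GNT5 thus held the largest of the 4 shares in every parental tumour. A4GALT held the largest in knockout replicates 1 to 3, with B4GALNT1 ahead of it in knockout replicate 4 (44.4% against 35.4%). A4GALT led B4GALNT1 narrowly in knockout replicates 2 (37.1% against 34.8%) and 3 (38.4% against 36.3%). B4GALNT1 may be undercounted where its exons overlap those of SLC26A10. With merged exons as the length, the A4GALT share was 15.2% ± 0.773 in parental and 50.2% ± 2.61 in knockout tumours. The knockout order then changed: A4GALT, at 47.7% to 53.8%, was ahead of B4GALNT1, at 22.8% to 33.4%, in all 4 knockout tumours. Transcript shares are not enzyme activities or lipid amounts, which were not measured.

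**Figure D3:**
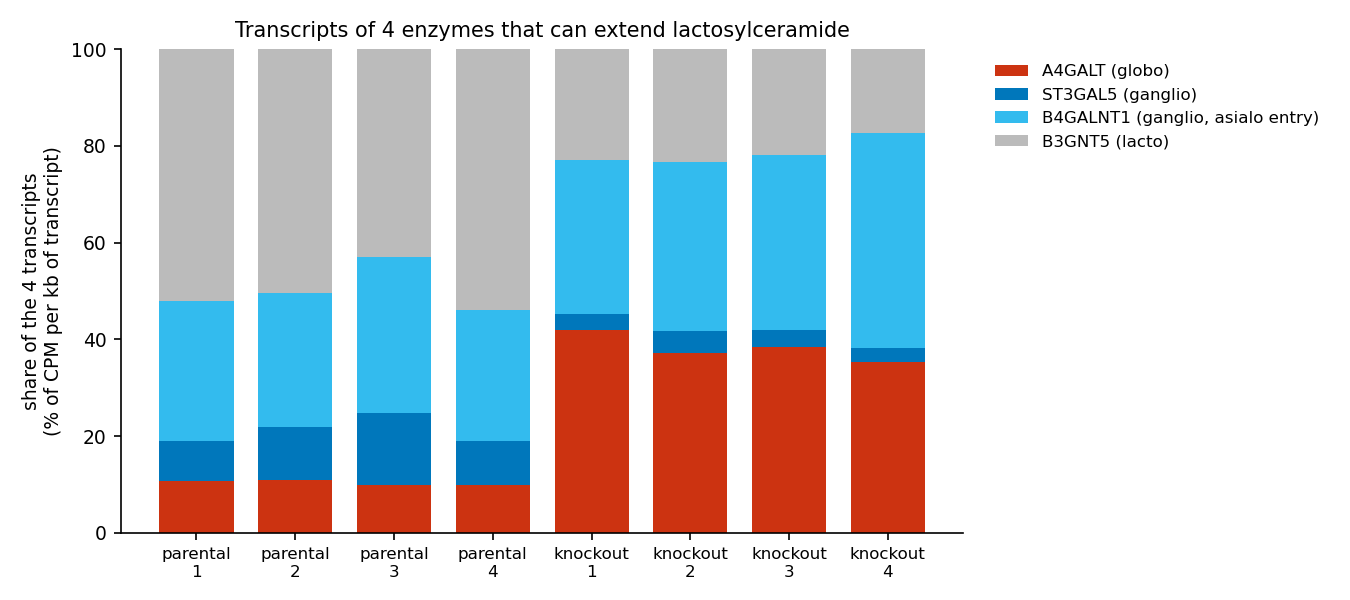
Share of each of 4 transcripts in their sum, in percent of CPM per kilobase of transcript, for each parental and knockout tumour (1 bar per tumour). A4GALT (red) fills 9.78% to 11.0% of the parental bars and 35.4% to 42.0% of the knockout bars.

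The rest of the pathway was described from 6 further lists of 88 genes, of which 76 passed the filter. Of these 76, 13 were called higher and 19 lower, a share of 42.1% against 27.0% over all genes tested. Their median log2 fold change was -0.03. Nothing is read from this share, since the lists too were chosen with earlier results of these data known. Adjusted p-values in the following paragraphs are from edgeR's quasi-likelihood test with Benjamini-Hochberg adjustment over all 16219 genes. For the same reason they are given as a description.

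Ceramide supply and transport showed 2 genes called higher and 2 lower among 15 tested, with a median log2 fold change of -0.01. The subunits of serine palmitoyltransferase, which makes the first sphingoid base, went in different directions. SPTLC1 rose from 58.3 ± 6.11 to 80.6 ± 5.23 CPM (log2 fold change 0.47, adjusted p = 0.00350) and SPTLC3 by 0.63 (adjusted p = 0.00717), while SPTLC2 fell from 129 ± 11.2 to 89.5 ± 4.42 CPM (-0.53, adjusted p = 0.000876). SGMS1, which turns ceramide into sphingomyelin and so competes with UGCG, fell by 0.47 (adjusted p = 0.00204). The lipid carriers that move ceramide or glucosylceramide were not called: COL4A3BP (now CERT1) had a log2 fold change of -0.32 (adjusted p = 0.102), PLEKHA8 0.11 (0.540) and GLTP -0.18 (0.349).

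In the list of later globo and lacto enzymes, 3 genes were called higher and 6 lower among 15 tested, with a median log2 fold change of -0.13. B3GNT5 was at 43.1 to 69.7 CPM in parental and 23.5 to 34.9 CPM in knockout tumours and fell by 0.84 (SE 0.162, adjusted p = 0.00276). The enzymes that carry Gb4 on to longer globo lipids were not called: B3GALT5 had a log2 fold change of -0.13 (adjusted p = 0.631) and ST3GAL2 0.34 (0.210). A4GNT, a gastric enzyme related to A4GALT in sequence, was at 0 in every library. GBGT1, named for the Forssman lipid made from Gb4, had 12 counts over the parental and 2 over the knockout libraries. Its parental counts came from replicate 2 (4 counts) and replicate 3 (8 counts), the parental tumours with the highest leukocyte marker sums (69.3 and 58.7 CPM). LYZ alone gave 38.2 and 36.8 CPM of these sums, and the part of the markers was not tested. The fucosyltransferase FUT1 fell from 4.04 ± 0.620 to 0.611 ± 0.275 CPM (-2.71, SE 0.295, adjusted p = 5.53e-05), and FUT2 and FUT3, named after their values were seen, fell by 1.20 each (adjusted p = 0.00258 and 0.000422), while FUT4 was at 35.7 ± 1.98 and 36.5 ± 3.91 CPM (0.03, adjusted p = 0.858). ST6GAL1, a sialyltransferase that acts mostly on glycoproteins, fell by 1.47 (adjusted p = 1.61e-05). B4GALT4 rose by 0.96 (adjusted p = 5.24e-05) and the sialyltransferase ST3GAL4 by 0.54 (adjusted p = 0.000248), and both also act on glycoproteins.

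The ganglio list, with sialic acid supply, had 2 genes called higher and 2 lower among 10 tested, with a median log2 fold change of 0.02. GNE, the rate-limiting enzyme of sialic acid synthesis, was at 12.8 to 14.6 CPM in parental and 46.3 to 56.1 CPM in knockout tumours, a rise of 1.89 on the log2 scale (SE 0.0977, adjusted p = 5.76e-07). NANP, a later enzyme of the same route, rose by 0.42 (adjusted p = 0.0425). That call was lost in 9 alternative settings, 7 of them among the 8 fits that left out 1 tumour. ST8SIA5, a sialyltransferase of complex gangliosides, had 3 parental and 10 knockout counts, a ratio of pooled counts of 3.32 (exact 95% interval 0.856 to 18.8, counting error only). B3GALT4, which makes GM1 from GM2, had a log2 fold change of -0.21 (adjusted p = 0.287). ST3GAL1 fell by 0.57 (adjusted p = 0.0194), with 0.0521 without parental replicate 3 and 0.0524 without knockout replicate 3 in a range of 0.0144 to 0.0524. ST6GALNAC5 fell by 0.75 (adjusted p = 0.0315) from 126 counts to 74. That call was lost in 10 alternative settings, 7 of them among the 8 fits without 1 tumour.

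UGT8, the enzyme that puts galactose in place of glucose on ceramide, was the 1 gene called among 4 tested for galactosylceramide and sulfatide, a list with a median log2 fold change of -0.26. It was at 21.8 to 27.3 CPM in parental and 4.21 to 5.14 CPM in knockout tumours and fell by 2.36 (SE 0.126, adjusted p = 6.60e-07). UGT8 and UGCG both use ceramide, and they were called in opposite directions.

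Lysosomal breakdown genes showed 3 calls higher and 3 lower among 16 tested, with a median of 0.01. Of the hydrolases that remove sugars, GLB1 had a log2 fold change of 0.01 (adjusted p = 0.927) and HEXA 0.04 (0.777), and neither was called. The lysosomal sialidase NEU1, named after its value was seen, fell from 39.7 ± 5.68 to 31.6 ± 1.39 CPM (-0.33, adjusted p = 0.0400). That call was lost in 9 alternative settings. Among them were the fits without parental replicates 2 or 3 or any 1 knockout tumour. Upper-quartile scaling (-0.30) and the filter of 50 counts in 4 libraries (-0.32) were also among them. PSAP, the precursor of the saposins, was at -0.21 (adjusted p = 0.200) and the membrane sialidase NEU3 at 0.04 (0.809). GM2A, an activator protein of GM2 breakdown, rose by 0.52 (adjusted p = 0.00226), and the cholesterol carrier NPC2 rose from 50.6 ± 4.81 to 104 ± 17.8 CPM (1.05, adjusted p = 0.000110). ASAH1, the lysosomal ceramidase, fell by 0.74 (adjusted p = 7.59e-05) and TFEB, a transcription factor of lysosomal genes, by 1.10 (adjusted p = 0.00122).

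The next list held genes of sugar nucleotide supply and of proteins linked to A4GALT, not all of them Golgi proteins. It had 3 genes called higher and 5 lower among 16 tested, with a median of -0.10. SLC35A2, which brings the UDP-galactose that A4GALT uses into the Golgi, fell from 32.5 ± 3.35 to 23.8 ± 2.20 CPM (-0.45, adjusted p = 0.00846). SLC35A1, the carrier of CMP-sialic acid that sialyltransferases use, rose from 5.72 ± 0.548 to 10.1 ± 0.658 CPM (0.82, adjusted p = 0.000635). Of the membrane proteins known to be needed for Gb3 synthesis, LAPTM4A rose by 0.30 (adjusted p = 0.0128; 0.0585 with no filter on low counts, in a range over the alternatives of 0.000771 to 0.0585), TM9SF2 had a log2 fold change of -0.18 (adjusted p = 0.178) and TMEM165 fell by 0.53 (adjusted p = 0.00119). UGDH, which turns UDP-glucose into UDP-glucuronate, rose by 0.62 (adjusted p = 0.00167), and the receptor AHR fell by 0.86 (adjusted p = 0.000152).

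**Figure D4:**
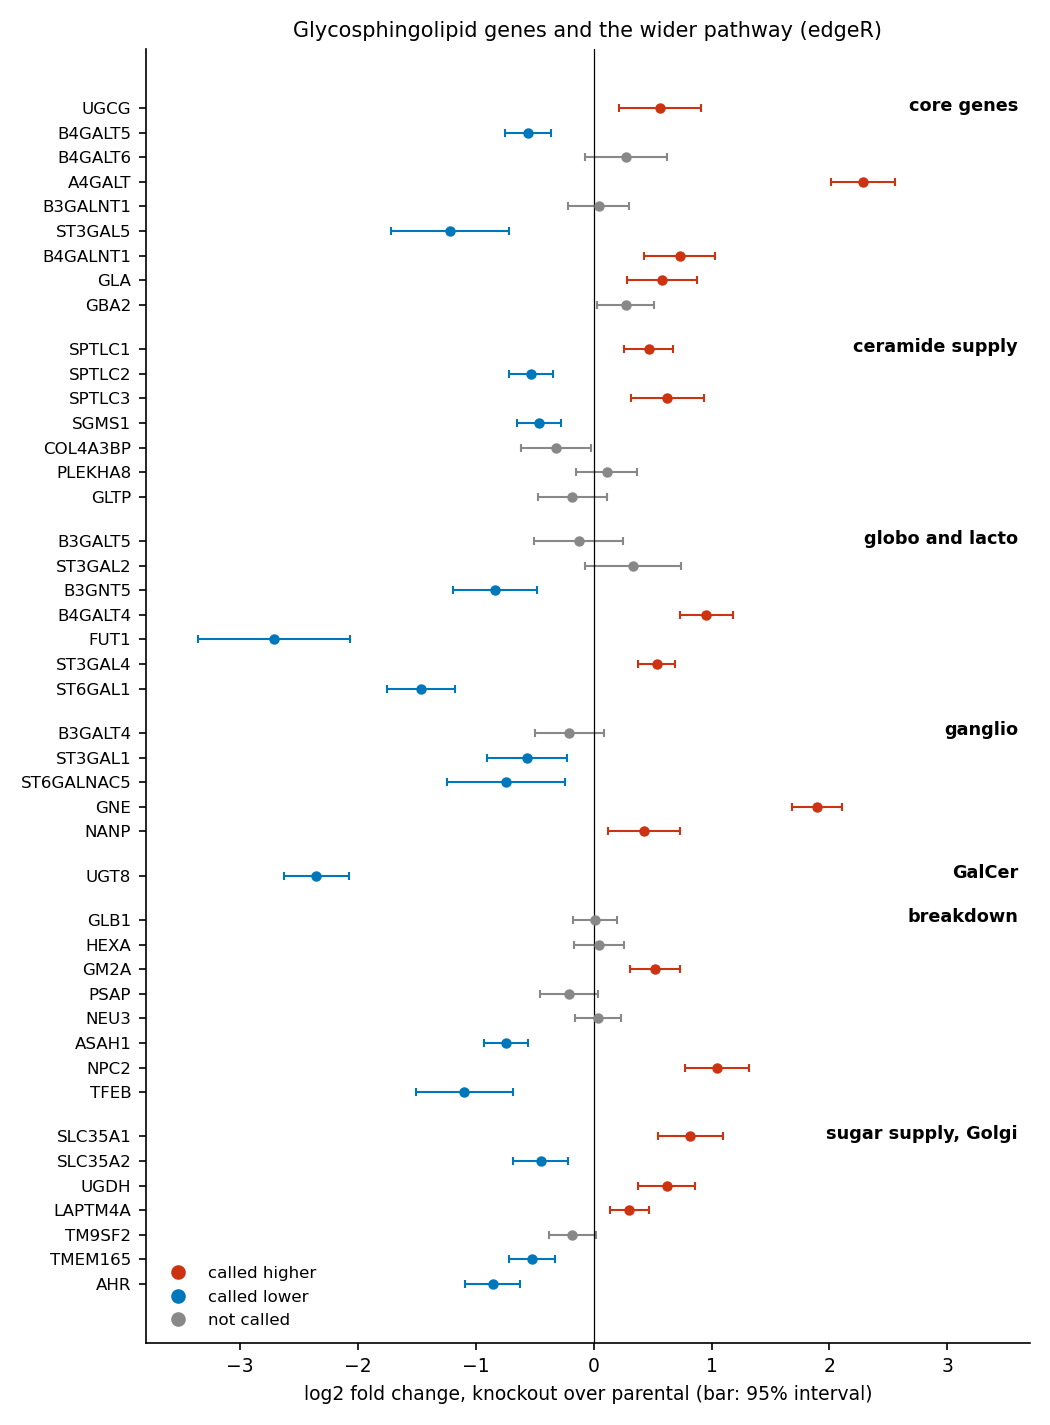
Log2 fold change of knockout over parental tumours with its 95% interval for the 9 genes tested and for named genes of the 6 further lists, coloured by call (red higher, blue lower, grey not called). A4GALT (2.29) and GNE (1.89) lie farthest to the right, and FUT1 (-2.71) and UGT8 (-2.36) farthest to the left.

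The genes whose profile over the 8 tumours lay nearest to that of A4GALT were sought among the 13044 genes with an abundance of 1 or more (edgeR's log2 of the CPM averaged over libraries), by the root mean square difference of log2 CPM after centring each gene on its own mean. Among the nearest were LYPD3 (0.14), WIPF3 (0.18), ITIH5 (0.18) and the non-coding gene AP000904.1 (0.19). LYPD3, a membrane-anchored protein of epithelia, was at 39.8 to 52.3 CPM in parental and 203 to 251 CPM in knockout tumours. These genes were picked for likeness to A4GALT, so their difference between the groups is not a separate result. ITIH5, at 0.638 to 0.759 CPM in parental and 3.36 to 4.39 CPM in knockout tumours, passed the abundance limit only through the knockout tumours, as did AP000904.1 (0.586 to 1.11 and 3.69 to 6.68 CPM).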

How the data were processed

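RNA was sequenced from 8 H2122 xenografts, 4 per group. Each deposited table gives raw counts for 59050 symbols and 5 summary lines of 1 tumour. The authors' tools are named as TopHat2 2.1.1 and HTSeq 0.11.0, with build hg38, per the submitters' processing notes. The annotation, the counting options, strandedness and any removal of mouse reads are not given in the sources used here. Genes took 79.1% to 85.2% of the reads listed, and the summary lines entered neither library sizes nor tests.

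Counts were fitted with edgeR 4.0.16 in R 4.3.3 (filterByExpr with a minimum count of 10 and total of 15, TMM scaling, quasi-likelihood F-test without covariates, Benjamini-Hochberg adjustment, threshold 0.05). SE and 95% intervals come from that fit. The fit was tested on simulated data. CPM is a count over the TMM-scaled library size. Log2 CPM used a prior count of 2. No pair of libraries of a group agreed within sampling noise (chi-square per degree of freedom of 9.13 or more).

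Members and lists were chosen with earlier results of these data known. Named are the 10 genes, SMARCA4, 18 pathway genes regardless of result, up to 4 called genes of smallest p per list, and the 5 nearest profiles to A4GALT; neighbours on chromosome 22 were named by position. Some genes the rule names are not reported here. Positions and lengths are from GENCODE 29 on GRCh38. RefSeq promoters matched 8 of the 10 genes. The length of a gene was settled after the data were seen.

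Alternatives were RLE and upper-quartile scaling, DESeq2 1.42.0, limma-voom (limma 3.58.1), no filter, a filter of 50 counts in 4 libraries, the replicate number as a block, and leaving out each tumour.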

Additional observations from a re-analysis of the deposited data

Results flagged for a closer look

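Of 104 sets of 4 values (a named gene in a group), 2 held a tumour whose distance to the nearest of the other 3 took up more of the range than the 95% critical value allows, while chance gives about 5% of sets. HEXA was at 95.4 CPM in knockout replicate 4, with the other knockout tumours at 80.2 to 82.1 CPM. ITIH5, one of the genes near A4GALT in profile, was at 3.36 CPM in knockout replicate 4, with the others at 4.25 to 4.39 CPM. The cause was not tested for either.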

How the results depend on the processing

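A4GALT kept its direction and call under all 7 alternatives on all 8 tumours (log2 fold change 2.26 to 2.32) and under all 8 fits that left out 1 tumour, as did SMARCA4 (-3.08 to -2.93 without 1 tumour). The genes examined had 6 calls under all 7 alternatives on all tumours and 5 to 7 without 1 tumour, and the 76 further genes had 30 to 33 and 27 to 32. Genes called overall numbered 3595 to 4902 under the 7 alternatives and 3501 to 4721 without 1 tumour. By upper-quartile scaling 54.1% of calls were higher, against 47.9% here. Same-numbered tumours did not pair (correlations of deviations -0.04, -0.02, -0.19 and 0.09), and the replicate block gave 3871 calls in all, 6 among the examined genes and 30 among the further genes. Genes near 0 changed sign: B3GALNT1 ran from -0.0287 to 0.11, GLB1 from -0.0448 to 0.0505, HEXA from -0.0173 to 0.10 and FUT4 from -0.0247 to 0.0996 without 1 tumour, and GLB1 was at -0.00901 with no filter. The cause was not tested. Depth limits ST8SIA1, with 18 counts in all.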
